A study of Mus musculus with 16 samples.

Results

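The odorant receptors described here are the 51 receptor genes (symbols of the form Olfr plus a number) whose array probe sets lie on mouse chromosomes 3, 4, 8, 13 and 15, out of 1080 such genes on the array and 19505 named genes in all. The choice was made by the chromosome in the probe set identifier and used no measured value. It also covered chromosomes 5, 12 and 18, on which no probe set named for such a gene was found. Chromosome 3 held 2 of the receptors, chromosome 4 held 23, chromosome 8 held 5, chromosome 13 held 12 and chromosome 15 held 9. In the RefSeq gene table they fell into 12 neighbourhoods separated by gaps of over 1 Mb, of which 6 held a single receptor and the largest held 13. All 51 carry a number above the class I range in the older MOR (mouse odorant receptor) family naming, and so belong to class II. They were matched to the table by Entrez identifier, each through 1 probe set.

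RNA came from the olfactory mucosa of 24 mice, male and female, aged 7 to 12 weeks, all carrying the S100a5-tauGFP reporter, in which the activity-dependent neuronal gene S100a5 governs a green fluorescent protein. Each animal spent 40 h alone in a chamber with an airflow of 3.1 L per min. From 26 h on, pulses of 10 s were delivered every 20 min, either of filtered air as the vehicle or of octanoic acid, a straight-chain fatty acid odorant. Tissue from 3 animals was pooled, dissociated and sorted, so that each of the 8 pools (4 per treatment) gave 1 GFP+ and 1 GFP- sample, and the 4 groups of 4 Clariom S arrays are clean air GFP+, clean air GFP-, octanoic acid GFP+ and octanoic acid GFP-. The reporter is present in the vehicle groups as well, GFP is the only sorting criterion the labels name, and a pool mixes 3 animals, so the replicate is the pool.

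Odorant receptors are G-protein-coupled receptors of the cilia of olfactory sensory neurons. A mature neuron transcribes 1 allele of 1 receptor gene, so the receptor transcripts in a tissue sample add up over many small populations of neurons. Odor binding activates the G protein Gnal, adenylyl cyclase Adcy3 and a cyclic-nucleotide-gated channel, and sustained activity raises genes such as S100a5. Receptor genes lie in genomic clusters that grew by tandem duplication, so that neighbours are often close relatives. Class II receptors are the larger, tetrapod-expanded class, and carboxylic acids are better known as ligands of class I receptors. In bulk samples of this kind, fewer cells that use a receptor and less receptor RNA per cell cannot be told apart.

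All values are log2 signals as deposited. The 5222 negative-control probe sets had a median of 6.20, with a range of 5.80 to 6.77 on single arrays, and their 95th percentile was 10.4. On octanoic acid arrays 1 to 4 the control median was 6.24, 6.21, 6.71 and 6.30 in GFP+ cells. In the GFP- cells of these pools it was 6.02, 5.93, 5.90 and 5.80. On clean air arrays it was 6.32, 6.28, 6.34 and 6.44 in GFP+ and 5.97, 6.26, 5.88 and 6.77 in GFP- cells. The control median was thus higher in the GFP+ sort of every pool but clean air pool 4. The main fits made no correction for this. Below, a difference is the log2 signal of GFP+ minus GFP- cells of the same pool, its error is the SD over 4 pools, and a receptor is called changed at an adjusted p under 0.05 (limma, Benjamini-Hochberg over all 19505 genes). A sort is said to lie at the background where the mean of its 4 arrays minus their SD was under 6.20. Where the dimmer sort lay at the background, a fold is given as a lower limit, and none is given where both sorts lay there. The gate was visible in its own gene: S100a5 was higher in GFP+ cells by 1.32 ± 0.22 with clean air (adjusted p = 0.000496) and by 1.53 ± 0.52 with octanoic acid (adjusted p = 0.000139). The mean of 8 mature neuron markers lay between 16.3 and 16.6 on every array, and 1 of the 8 was called, higher, in each treatment. Of 7 immature neuron markers 5 were lower in GFP+ cells in both treatments, and their mean was 10.6 to 11.2 on GFP+ and 12.6 to 13.5 on GFP- arrays. All 7 measured leukocyte markers were lower in GFP+ cells, with a mean of 6.05 to 7.88 on GFP+ and 12.0 to 14.1 on GFP- arrays. Sets of basal, sustentacular and microvillous cell markers were also lower in part (4 of 7, 3 of 6 and 5 of 5 called with clean air, and 4, 2 and 4 with octanoic acid), and none of these markers was higher. In the GFP+ groups all 7 measured basal markers and 4 or 5 of the 5 microvillous markers lay under the negative-control median. The part of these other cells in the receptor results was not tested.

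Over all 16 arrays 44 of the 51 receptors had a mean above the negative-control median, and 15 had one above the 95th percentile of the controls. The same held for 900 and 271 of the 1029 receptors on the other chromosomes. On chromosome 13, 9 of 12 receptors lay above that percentile, against 2 of 9 on chromosome 15, 3 of 23 on chromosome 4, 1 of 5 on chromosome 8 and 0 of 2 on chromosome 3. Probe sets differ in affinity, so these counts place each probe set against the controls and do not order the receptors by abundance. In both treatments Olfr1402, Olfr159, Olfr62, Olfr1337, Olfr371, Olfr1535 and Olfr282 lay at the background in both sorts. Of these, Olfr62 in GFP+ cells had a mean above 6.20, by less than its SD (6.29 ± 0.97 with clean air, 6.70 ± 0.93 with octanoic acid), while the other 6 had means under it in every group.

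With clean air, 31 of the 51 receptors differed between GFP+ and GFP- cells, with 22 higher and 9 lower in the GFP+ sort. That is 60.8% of them, where 15.4% of all genes and 61.1% of the receptors on the other chromosomes were called. By direction, 43.1% were higher and 17.6% lower, against 5.83% and 9.58% of all genes and 37.5% and 23.6% of the other receptors. With octanoic acid 34 were called, 24 higher and 10 lower. This is 66.7%, beside 17.2% of all genes and 60.8% of the other receptors; 47.1% were higher and 19.6% lower, against 6.26% and 10.9% of all genes and 35.6% and 25.3% of the other receptors. The share called was thus close to that of other receptors, and no test of a difference between the receptor sets was made. The counts of the 51 include calls where both sorts lay at the background. With clean air these were 1 higher (Olfr1337) and 2 lower (Olfr159 and Olfr371). With octanoic acid they were 1 higher (Olfr62) and 1 lower (Olfr371). The median difference was 0.71 with clean air and 0.45 with octanoic acid, against 0.41 and 0.24 for the other receptors and 0.11 in both treatments over all genes. The octanoic acid median was 0.76 with array median centring, 0.77 with values floored at each array's negative-control median and 0.89 over the 44 receptors above background. The clean air medians under the same settings were 0.98, 0.56 and 0.83. The order of the treatments thus turned under the floor and over the receptors above background. With octanoic acid the floor itself was higher on GFP+ than on GFP- arrays.

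Differences ran from -3.55 for Olfr270 to 4.64 for Olfr372 with clean air, and from -3.85 to 4.17 with octanoic acid. The 4 GFP+ and 4 GFP- arrays did not overlap for 31 receptors (60.8%; 20.5% of all genes) with clean air, with GFP+ above in 20. With octanoic acid they did not overlap for 30 (58.8%; 17.9% of all genes), with GFP+ above in 22. With clean air all 4 pools lay above 0 for 25 receptors and below 0 for 12. With octanoic acid this held for 26 and 11. Agreement of the pools was not counted over all genes. The mean difference was positive for 35 of the 51 receptors in each treatment. Over all 19505 genes it was positive for 12548 with clean air and 12213 with octanoic acid.

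Taking the calls of both treatments together, 20 receptors were higher in both, 8 were lower in both, 14 were called in neither, and 0 were called in opposite directions. Such joint calls were not counted over all genes or the other receptors. The 8 include Olfr371, which lay at the background in both sorts. Both sets of calls come from 1 fit with a shared estimate of the spread, so they are not independent. Olfr286 and Olfr1337 were called higher with clean air alone, and Olfr62, Olfr1335, Olfr1329 and Olfr1367 with octanoic acid alone. Olfr159 was called lower with clean air alone, and Olfr370 and Olfr283 with octanoic acid alone. A call in 1 treatment alone is no sign of a difference between treatments, which is tested further on. The sign was the same for 49 of 51 receptors, and the mean differences of both treatments were correlated across the 51 genes (r = 0.97 by Pearson, rho = 0.96 by Spearman). Between single pools the lowest r was 0.80. These correlations are across genes, which share arrays and are no replicates.

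**Figure D1:**
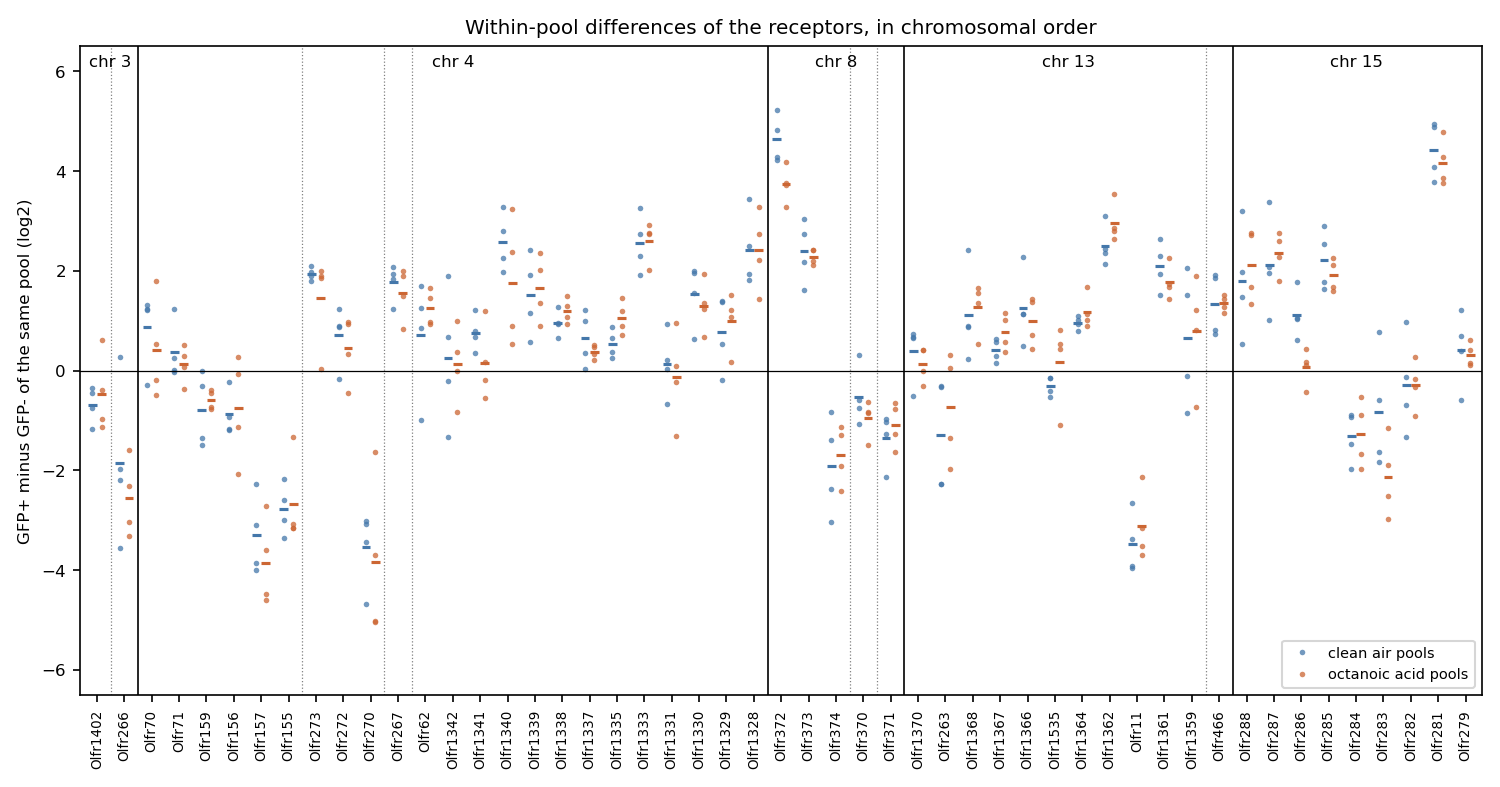
Log2 GFP+ minus GFP- of each pool (points) and the mean of each treatment (bars) for the 51 receptors in chromosomal order; solid lines part chromosomes and dotted lines part neighbourhoods over 1 Mb apart. Strongly positive and strongly negative receptors lie beside each other in the same neighbourhood, as for Olfr1362 and Olfr11 on chromosome 13, while the 13 receptors from Olfr62 to Olfr1328 on chromosome 4 include no receptor called lower.

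**Figure D2:**
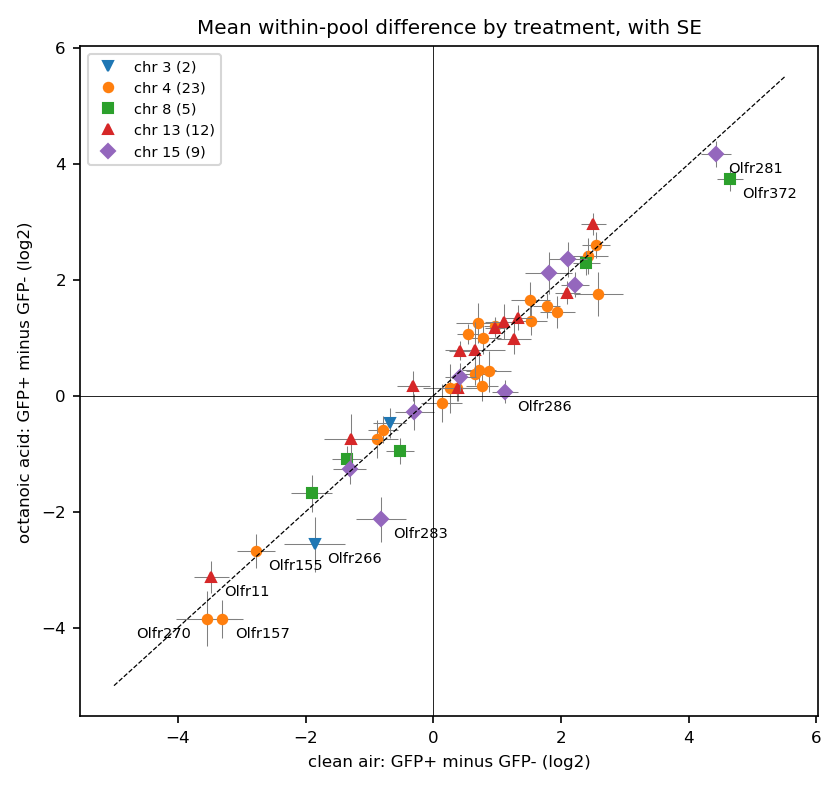
Mean within-pool difference with clean air (horizontal) and octanoic acid (vertical), log2, with the SE of the fit as thin lines, 1 symbol per chromosome; the dashed line marks equal values. Most receptors lie near the line, with Olfr281 and Olfr372 at the top right and Olfr270, Olfr157 and Olfr11 at the bottom left.

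On chromosome 4, the first neighbourhood held Olfr70, Olfr71 and the OR37 genes Olfr155, Olfr156, Olfr157 and Olfr159, all of family MOR262. OR37 neurons are known for sitting together in a central patch of the epithelium instead of scattering through a broad zone. None of the 6 was called higher in GFP+ cells (with array median centring 2 were, with clean air), and 3 were lower with clean air and 2 with octanoic acid. Olfr157, the gene also called OR37C, read 5.003, 6.06, 5.17 and 5.17 in the GFP+ cells of clean air pools 1 to 4 and 8.99, 8.33, 9.04 and 8.27 in their GFP- cells. With octanoic acid its GFP+ arrays read 5.32, 6.29, 5.26 and 5.55 and its GFP- arrays 9.91, 9.02, 8.86 and 10.03. In GFP+ cells it was thus at the level of the negative controls, and every GFP- array lay above every GFP+ array. Its difference with clean air was -3.31 ± 0.80, at least 5.49-fold lower (adjusted p = 2.34e-05), and that with octanoic acid -3.85 ± 0.87, at least 9.39-fold lower (adjusted p = 6.01e-06).

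Olfr155, also called OR37A, stayed above the negative-control median in both sorts. With clean air it read 8.20, 9.28, 8.62 and 8.44 in GFP+ and 11.56, 11.46, 11.62 and 11.03 in GFP- cells. With octanoic acid the values were 7.99, 10.66, 8.04 and 8.99 in GFP+ and 11.06, 11.98, 11.20 and 12.15 in GFP- cells. Again the sorts did not overlap, although GFP+ cells of octanoic acid pool 2 came near the GFP- range. The difference was -2.78 ± 0.51 (6.88-fold lower, adjusted p = 3.9e-05) with clean air and -2.68 ± 0.90 (6.40-fold lower, adjusted p = 4.69e-05) with octanoic acid. Olfr156 (OR37B) had differences of -0.88 ± 0.45 and -0.75 ± 1.07 and was not called. Olfr159 (OR37E) lay at the background in both sorts, so that its call with clean air (-0.79 ± 0.74, adjusted p = 0.0441) has no fold. That call was kept in only 2 of the 8 fits with a pool left out, with an adjusted p of up to 0.208. It was lost without clean air pool 1 or 3 and without any 1 of the octanoic acid pools, which share its estimate of the spread. Of its neighbours, Olfr71 had differences of 0.37 ± 0.60 and 0.13 ± 0.38 and Olfr70 of 0.87 ± 0.77 and 0.42 ± 1.02, none called.

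The other 4 receptors of family MOR262 lie in 2 further neighbourhoods of the chromosome, and their calls went both ways. Olfr270 read 7.12, 7.78, 6.65 and 6.07 in GFP+ and 10.19, 10.79, 10.09 and 10.75 in GFP- cells with clean air. In the octanoic acid pools it read 6.17, 9.11, 6.06 and 6.35 in GFP+ and 11.18, 10.74, 9.77 and 11.38 in GFP- cells. The sorts did not overlap in either treatment, and GFP+ cells of octanoic acid pool 2 were the highest of the GFP+ arrays. The difference of Olfr270 was -3.55 ± 0.77 with clean air, a decrease of at least 11.4-fold (adjusted p = 0.00024), and -3.85 ± 1.60 with octanoic acid, a decrease of at least 14.0-fold (adjusted p = 0.000114). Its neighbour Olfr273 was higher in GFP+ cells, by 1.94 ± 0.13 with clean air (adjusted p = 0.000404) and by 1.45 ± 0.95 with octanoic acid (adjusted p = 0.00327). Olfr272 between them was not called (0.71 ± 0.61 and 0.45 ± 0.66). Olfr267, over 1 Mb away, was higher by 1.78 ± 0.37 and 1.56 ± 0.52.

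The fourth neighbourhood of chromosome 4 held 13 receptors, 5 of family MOR258 followed by 8 of family MOR259. None was called lower in GFP+ cells in either treatment under the deposited scaling, array median centring, quantile normalization or centring on the other receptors. These settings all use the same arrays. Under the deposited scaling 9.58% of all genes were called lower with clean air and 10.9% with octanoic acid. Of the receptors on the other chromosomes 23.6% and 25.3% were. With clean air 2 of 5 MOR258 and 5 of 8 MOR259 receptors were higher, and with octanoic acid 3 and 6. Olfr1333 of MOR259 read 10.62, 9.89, 10.09 and 10.48 in GFP+ and 8.32, 7.98, 7.35 and 7.23 in GFP- cells with clean air. With octanoic acid it read 11.04, 10.50, 10.44 and 11.50 in GFP+ and 8.29, 7.59, 8.42 and 8.77 in GFP- cells. The sorts were apart by more than their spread in both treatments, with differences of 2.55 ± 0.58 (5.87-fold, adjusted p = 7.42e-06) and 2.60 ± 0.40 (6.08-fold, adjusted p = 5.59e-06).

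Olfr1328, at the end of the neighbourhood, read 11.56, 10.97, 11.13 and 10.77 in GFP+ and 9.62, 9.16, 8.64 and 7.32 in GFP- cells with clean air. With octanoic acid its values were 11.54, 11.84, 11.35 and 11.11 in GFP+ and 9.32, 8.56, 8.61 and 9.69 in GFP- cells. It was higher in GFP+ cells by 2.43 ± 0.74 (5.37-fold, adjusted p = 0.000154) and 2.42 ± 0.79 (5.33-fold, adjusted p = 0.000145), with no overlap of the sorts. Olfr1340 of MOR258 was close to the negative controls. Its clean air values were 7.58, 7.41, 7.50 and 7.23 in GFP+ and 5.32, 5.44, 4.21 and 4.42 in GFP- cells, and its octanoic acid values were 8.56, 7.00, 6.28 and 6.87 against 5.33, 4.63, 5.39 and 6.33. The sorts were separate with clean air and overlapped with octanoic acid, where the highest GFP- array lay above the lowest GFP+ array. Differences were 2.58 ± 0.59 (at least 2.34-fold, adjusted p = 0.000522) and 1.76 ± 1.27 (at least 1.93-fold, adjusted p = 0.0074).

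Olfr1339, Olfr1338 and Olfr1330 were also higher in both treatments, by 1.52 and 1.66, 0.96 and 1.20, and 1.54 and 1.30. Olfr1335 read 8.61, 8.92, 9.17 and 8.23 in GFP+ and 8.36, 8.26, 8.29 and 7.87 in GFP- cells with clean air, with overlap. Under octanoic acid the values were 9.17, 9.45, 9.04 and 9.25 against 7.98, 7.997, 8.33 and 8.36, with none. The call was made with octanoic acid (1.06 ± 0.33, adjusted p = 0.000893) and not with clean air (0.54 ± 0.28, adjusted p = 0.0546). Olfr1329 was called with octanoic acid (1.00 ± 0.58, adjusted p = 0.0291; 0.121 at most with a pool left out) and not with clean air (0.78 ± 0.76). Olfr1341, Olfr1342 and Olfr1331 were called in neither treatment, with differences of 0.76 and 0.16, 0.26 and 0.13, and 0.13 and -0.12. Olfr62 was called higher with octanoic acid (1.26 ± 0.36), with a GFP+ mean within its SD of the background. Olfr1337 was called higher with clean air (0.65 ± 0.56), with both sorts under the negative-control median. Of the 8 fits with a pool left out, 5 kept the call of Olfr62 (adjusted p up to 0.101). Only 1 of the 8 kept that of Olfr1337 (adjusted p up to 0.223).

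The 5 receptors of chromosome 8 included the highest difference with clean air of all 51. Olfr372 read 10.71, 9.65, 10.43 and 9.63 in GFP+ and 5.88, 5.36, 5.20 and 5.40 in GFP- cells with clean air. With octanoic acid its GFP+ values were 10.07, 10.52, 8.27 and 10.40 and its GFP- values 6.30, 6.34, 4.54 and 7.12. It was under the negative-control median on all clean air GFP- arrays, and octanoic acid pool 3 was the lowest array of both sorts. The difference was 4.64 ± 0.47, at least 14.97-fold (adjusted p = 5.11e-08), with clean air and 3.74 ± 0.37, at least 10.0-fold (adjusted p = 1.71e-07), with octanoic acid. Its neighbour and fellow MOR282 receptor Olfr373 was higher by 2.39 ± 0.63 (5.25-fold) and 2.29 ± 0.15 (4.88-fold).

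The third receptor of the same neighbourhood, Olfr374 of family MOR130, went the other way. It read 5.18, 6.44, 6.82 and 6.08 in GFP+ and 8.21, 7.83, 7.64 and 8.45 in GFP- cells with clean air, and 6.18, 6.45, 7.34 and 6.78 against 8.59, 8.36, 8.62 and 7.92 with octanoic acid. GFP- arrays lay above all GFP+ arrays in both treatments, and the differences were -1.90 ± 0.99 (at least 3.07-fold lower, adjusted p = 0.00143) and -1.68 ± 0.59 (at least 3.20-fold lower, adjusted p = 0.00322). Olfr370, a lone receptor of family MOR267, was lower with octanoic acid (-0.95 ± 0.37, adjusted p = 0.0117) but not called with clean air (-0.52 ± 0.60, adjusted p = 0.154); without octanoic acid pool 3 its adjusted p was 0.0616. Olfr371 was called lower in both treatments (-1.36 ± 0.54 and -1.08 ± 0.46) with both sorts under the negative-control median, so this is not a measured level of expression. With values raised to each array's own negative-control median it lost the call and the sign with clean air, at 0.12, and was called higher with octanoic acid, at 0.46.

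On chromosome 13, 10 MOR256 receptors and Olfr1366 (MOR130) form a neighbourhood of 11, of which 5 were higher and 1 lower with clean air and 6 were higher and 1 lower with octanoic acid. Olfr1362 read 13.34, 12.61, 12.34 and 13.16 in GFP+ and 11.20, 10.25, 9.90 and 10.07 in GFP- cells with clean air. Its octanoic acid values were 13.48, 13.48, 12.80 and 13.32 in GFP+ and 9.94, 10.67, 9.93 and 10.67 in GFP- cells. No GFP- array reached the GFP+ range, and the differences were 2.51 ± 0.41 (5.69-fold, adjusted p = 3.05e-06) and 2.96 ± 0.39 (7.80-fold, adjusted p = 7.18e-07).

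Olfr11, the next receptor along the chromosome and of the same family, was the lowest of chromosome 13. With clean air it read 8.80, 9.89, 9.20 and 8.39 in GFP+ and 12.76, 12.55, 13.13 and 11.76 in GFP- cells, and with octanoic acid 9.01, 9.53, 9.79 and 9.87 against 12.53, 12.68, 13.48 and 12.01. The sorts were far apart in both treatments and in the direction opposite to Olfr1362. It was 11.1-fold lower in GFP+ cells with clean air (-3.48 ± 0.61, adjusted p = 3.16e-06) and 8.72-fold lower with octanoic acid (-3.12 ± 0.70, adjusted p = 6.61e-06). On its far side Olfr1361 was again higher, by 2.10 ± 0.48 (4.29-fold) and 1.78 ± 0.35 (3.43-fold).

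Olfr1364 and Olfr1366 were higher in both treatments, by 0.96 and 1.18 and by 1.26 and 0.99; the octanoic acid call of Olfr1366 was lost without pool 2 or 3 of that treatment (adjusted p up to 0.0974). So was Olfr1368, by 1.11 ± 0.93 and 1.28 ± 0.51, although without clean air pool 1, 2 or 4 its clean air call was lost (adjusted p up to 0.128), as was its octanoic acid call without octanoic acid pool 1 or 4 (up to 0.0655). Olfr1367 was called with octanoic acid (0.78 ± 0.36) and not with clean air (0.41 ± 0.23). Olfr1370, Olfr1359, Olfr263 and Olfr1535 were called in neither treatment. Of these, Olfr263 had differences of -1.29 ± 1.13 and -0.74 ± 1.10 and Olfr1359 of 0.65 ± 1.37 and 0.80 ± 1.11, with the widest spread of the neighbourhood. Olfr466, the lone MOR209 receptor of the chromosome, was higher by 1.33 ± 0.64 (adjusted p = 0.000954) and 1.35 ± 0.16 (adjusted p = 0.00082). Close relatives such as the MOR256 receptors may share probe matches, which was not tested.

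**Figure D3:**
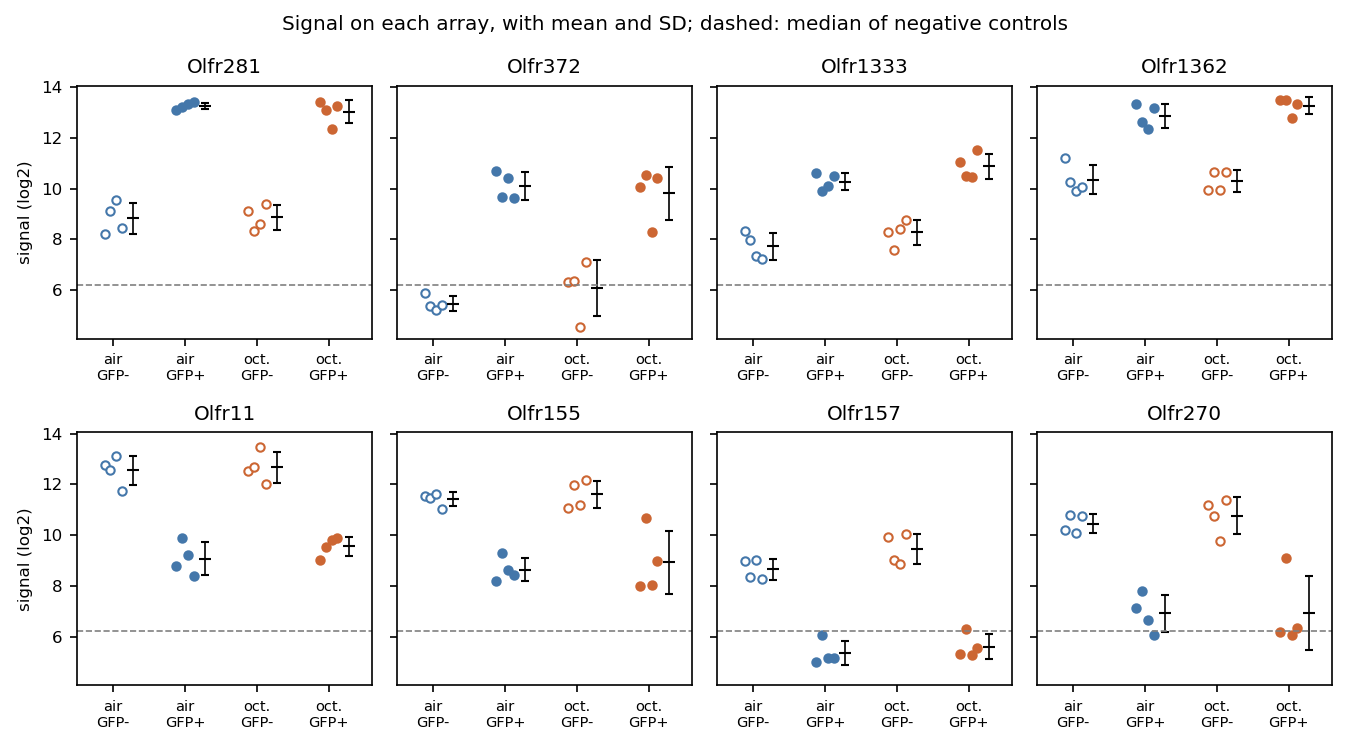
Log2 signal of 8 receptors on each of the 16 arrays (open points GFP-, filled points GFP+; blue clean air, orange octanoic acid) with mean and SD of 4 arrays; the dashed line is the negative-control median of 6.20. In the top row (Olfr281, Olfr372, Olfr1333, Olfr1362) GFP+ arrays lie above GFP- arrays, in the bottom row (Olfr11, Olfr155, Olfr157, Olfr270) below them, and Olfr157 is near the dashed line in GFP+ cells.

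Chromosome 15 held 1 neighbourhood of 9 receptors, 3 of family MOR286, 5 of MOR160 and Olfr279 of MOR122; 5 were higher and 1 lower with clean air, and 4 were higher and 2 lower with octanoic acid. Olfr281 of MOR160 read 13.11, 13.20, 13.34 and 13.39 in GFP+ and 8.22, 9.12, 9.55 and 8.44 in GFP- cells with clean air. With octanoic acid its GFP+ values were 13.41, 13.11, 12.37 and 13.25 and its GFP- values 9.13, 8.33, 8.61 and 9.39. It had the highest measured fold of the 51, with both sorts above the negative-control median on every array. The difference was 4.43 ± 0.58 (21.5-fold, adjusted p = 1.44e-07) with clean air and 4.17 ± 0.46 (18.0-fold, adjusted p = 2.04e-07) with octanoic acid.

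The rest of family MOR160 did not move as one. Olfr285 was higher by 2.21 ± 0.60 (4.63-fold) and 1.92 ± 0.33 (3.78-fold). Olfr284 read 5.17, 5.58, 5.79 and 5.30 in GFP+ and 7.13, 6.47, 7.25 and 6.23 in GFP- cells with clean air, and 5.72, 5.71, 6.02 and 6.01 against 6.60, 7.39, 7.9997 and 6.54 with octanoic acid. The sorts were separate but near the negative controls, and it was lower by at least 1.49-fold (-1.31 ± 0.51, adjusted p = 0.00342) and at least 1.91-fold (-1.27 ± 0.67, adjusted p = 0.00412). Olfr283 read 8.91, 9.90, 8.89 and 9.49 in GFP+ and 10.53, 10.50, 10.72 and 8.72 in GFP- cells with clean air. In octanoic acid pools the values were 8.92, 9.97, 8.82 and 7.58 against 10.80, 11.13, 11.34 and 10.54. The sorts overlapped with clean air through the GFP- array of pool 4 and were separate with octanoic acid, where Olfr283 was 4.38-fold lower (-2.13 ± 0.79, adjusted p = 0.00233; with clean air -0.82 ± 1.19, adjusted p = 0.203). Olfr282 lay at the background, and Olfr279 was not called (0.42 ± 0.76 and 0.32 ± 0.23).

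The 3 MOR286 receptors lie side by side. Olfr288 and Olfr287 were higher in GFP+ cells in both treatments, by 1.80 ± 1.11 (3.49-fold, adjusted p = 0.0049) and 2.12 ± 0.72 (4.35-fold, adjusted p = 0.00149) for Olfr288 and by 2.11 ± 0.97 (4.32-fold, adjusted p = 0.000406) and 2.36 ± 0.43 (5.12-fold, adjusted p = 0.000155) for Olfr287. Olfr286 read 11.05, 10.64, 11.25 and 10.95 in GFP+ and 9.98, 10.02, 10.23 and 9.17 in GFP- cells with clean air. With octanoic acid it read 11.14, 10.22, 10.41 and 10.62 against 11.03, 10.05, 10.85 and 10.19. The sorts were separate with clean air (1.12 ± 0.48, adjusted p = 0.00219) and interleaved with octanoic acid (0.07 ± 0.37, adjusted p = 0.84).

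Promoter sequence, taken from RefSeq windows of GRCm38.p6 that run from 250 bases before to 50 bases after each gene's annotated start, was found for 42 of the 51 receptors. In 28 of these the annotated start is the ATG itself. There the 250 bases before it need not be a promoter, and the last 50 bases of the window are coding sequence. The other 14 windows have their start elsewhere. Motifs were counted over the whole window. TCCCNNGGG, a core known for the Ebf factors of olfactory neurons, was searched on both strands, as were a longer Ebf core that contains it, the homeodomain cores TAATTA and TAATGA, and TATAAA. TCCCNNGGG occurred in 3 of the 42 windows (7.14%), those of Olfr288, Olfr287 and Olfr374, against 6.56% of all 32851 windows of the same length and 2.54% of the 944 receptor windows. All 3 belong to the 14 windows with a start elsewhere, and 17 of 259 such receptor windows (6.56%) hold it. The longer core occurred in 0 of 42 (0.904% of all windows), TAATTA in 1 (2.38%; 5.29% of all and 18.6% of receptor windows), TAATGA in 4 (9.52%; 9.78% of all and 28.8% of receptor windows) and TATAAA in 14 (33.3%; 13.6% of all and 41.2% of receptor windows).

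The 250 bases before the start are shown for these 3 genes because 2 of them, Olfr288 (chr15:98195543-98195792, minus strand) and Olfr287 (chr15:98221057-98221306, minus strand), are a pair that was higher in GFP+ cells and share most of the sequence, while Olfr374 (chr8:72106790-72107039, plus strand) was lower. Each is written 5′ to 3′ on the strand of the gene, and capitals mark the match to TCCCNNGGG, which in all 3 reads on the opposite strand.
Olfr288: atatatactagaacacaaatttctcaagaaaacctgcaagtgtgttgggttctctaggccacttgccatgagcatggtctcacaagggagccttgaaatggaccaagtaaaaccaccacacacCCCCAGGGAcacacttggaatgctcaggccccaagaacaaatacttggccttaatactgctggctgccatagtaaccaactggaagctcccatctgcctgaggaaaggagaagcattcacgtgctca
Olfr287: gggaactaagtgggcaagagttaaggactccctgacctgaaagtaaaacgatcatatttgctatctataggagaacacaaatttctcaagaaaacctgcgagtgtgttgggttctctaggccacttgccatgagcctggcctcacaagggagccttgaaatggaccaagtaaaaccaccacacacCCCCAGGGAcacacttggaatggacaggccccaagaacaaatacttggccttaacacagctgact
Olfr374: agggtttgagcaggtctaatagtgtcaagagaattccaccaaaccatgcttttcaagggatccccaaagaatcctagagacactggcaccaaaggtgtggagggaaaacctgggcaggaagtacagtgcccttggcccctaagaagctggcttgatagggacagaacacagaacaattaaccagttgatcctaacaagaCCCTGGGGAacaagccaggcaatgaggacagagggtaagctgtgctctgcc
The match lies at -127 to -119 from the start in Olfr288, at -65 to -57 in Olfr287 and at -51 to -43 in Olfr374. Among the 91 pairs of the 14 windows aligned locally, Olfr288 and Olfr287 had the most identical bases, 177 of 188 aligned columns (94.2%), and the next pair, Olfr374 with Olfr287, had 80 of 133. A match is a description of the letters in the window and was found beside receptors of both directions.

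Chromosome 3 held 2 receptors that are not neighbours. Olfr266 of family MOR122 read 5.42, 6.71, 8.48 and 5.97 in GFP+ and 8.98, 8.68, 8.21 and 8.16 in GFP- cells with clean air. After octanoic acid the values were 6.19, 5.46, 7.55 and 6.13 against 9.21, 8.77, 9.14 and 8.43. With clean air pool 3 alone ran the other way and made the sorts overlap, while with octanoic acid they were separate. The difference was -1.86 ± 1.59 (at least 3.05-fold lower, adjusted p = 0.0192) and -2.56 ± 0.77 (at least 5.11-fold lower, adjusted p = 0.00246), and the clean air call was lost without clean air pool 1, 2 or 4 (adjusted p up to 0.0998). Olfr1402 read 4.10, 4.22, 4.16 and 4.18 in GFP+ and 4.84, 4.68, 4.50 and 5.35 in GFP- cells with clean air, and 4.22, 3.80, 4.15 and 4.65 against 5.19, 4.92, 4.54 and 4.03 with octanoic acid. All of these lie under the negative-control median, and it was called in neither treatment.

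Whether octanoic acid changed the distribution of the receptors between the sorts was tested as the difference of the within-pool differences, and its effect within each sort as octanoic acid minus clean air. In limma, 0 of the 51 receptors were called in any of the 3 comparisons (0% of all genes were called in each). At an unadjusted p under 0.05 there were 3 receptors for the enrichment, 3 in GFP+ cells and 4 in GFP- cells, or 5.88%, 5.88% and 7.84%, against 4.47%, 3.67% and 3.80% of all genes. Of the receptors on the other chromosomes 7.68%, 4.28% and 5.25% had such a p. The fits with the replicate number as a block also called 0. The widths of the intervals set what could be seen: the unadjusted 95% interval of the effect on enrichment reached to each side by 0.49 to 1.48 log2, with a median of 0.81. It lay within 1 log2 of 0 on both sides for 19 receptors and within 2 log2 for 48. In GFP+ cells 32 intervals, and in GFP- cells 36, lay within 1 log2, and all 51 lay within 2 log2.

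The smallest p for the effect on enrichment was that of Olfr286, whose values per array are given with its family. The difference of its enrichment, octanoic acid minus clean air, was -1.05 (95% interval -1.68 to -0.42, unadjusted p = 0.00353, adjusted p = 0.94; over the alternatives the adjusted p was 0.411 to 1). The next were Olfr372 (-0.90, interval -1.53 to -0.28, unadjusted p = 0.00854) and Olfr283 (-1.31, interval -2.52 to -0.10, unadjusted p = 0.0366), both with an adjusted p of 0.94. For Olfr286 all 4 octanoic acid pools had a smaller difference than any clean air pool, as also for Olfr372. Such separation of the treatments was not counted over all genes or the other receptors, so it adds nothing to the p-values. Olfr286, Olfr372 and Olfr283 are picked by their p out of 51, and none passes the correction over all genes.

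In GFP+ cells the smallest p belonged to Olfr1370, with 12.83, 12.28, 13.24 and 13.07 with clean air and 12.47, 12.29, 12.32 and 11.98 with octanoic acid (-0.59, interval -1.08 to -0.10, unadjusted p = 0.0225). Its GFP- arrays read 12.17, 12.78, 12.56 and 12.34 with clean air and 12.48, 11.88, 12.63 and 11.56 with octanoic acid. Olfr1335 (0.49, unadjusted p = 0.0421) and Olfr1333 (0.60, unadjusted p = 0.0435) followed, and all 3 had an adjusted p of 0.955. In GFP- cells the smallest were Olfr157 (0.80, interval 0.14 to 1.45, unadjusted p = 0.0213), Olfr71 (0.50, interval 0.08 to 0.92, unadjusted p = 0.0228) and Olfr286 (0.68, interval 0.06 to 1.29, unadjusted p = 0.0335), each with an adjusted p of 0.985. Olfr71 read 10.17, 10.54, 10.72 and 10.24 in clean air and 11.04, 10.90, 10.58 and 11.17 in octanoic acid GFP- cells. Its GFP+ arrays read 10.15, 10.55, 10.98 and 11.49 with clean air and 10.67, 11.41, 10.87 and 11.23 with octanoic acid. The ranges of the treatments overlap for Olfr71 in both sorts.

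**Figure D4:**
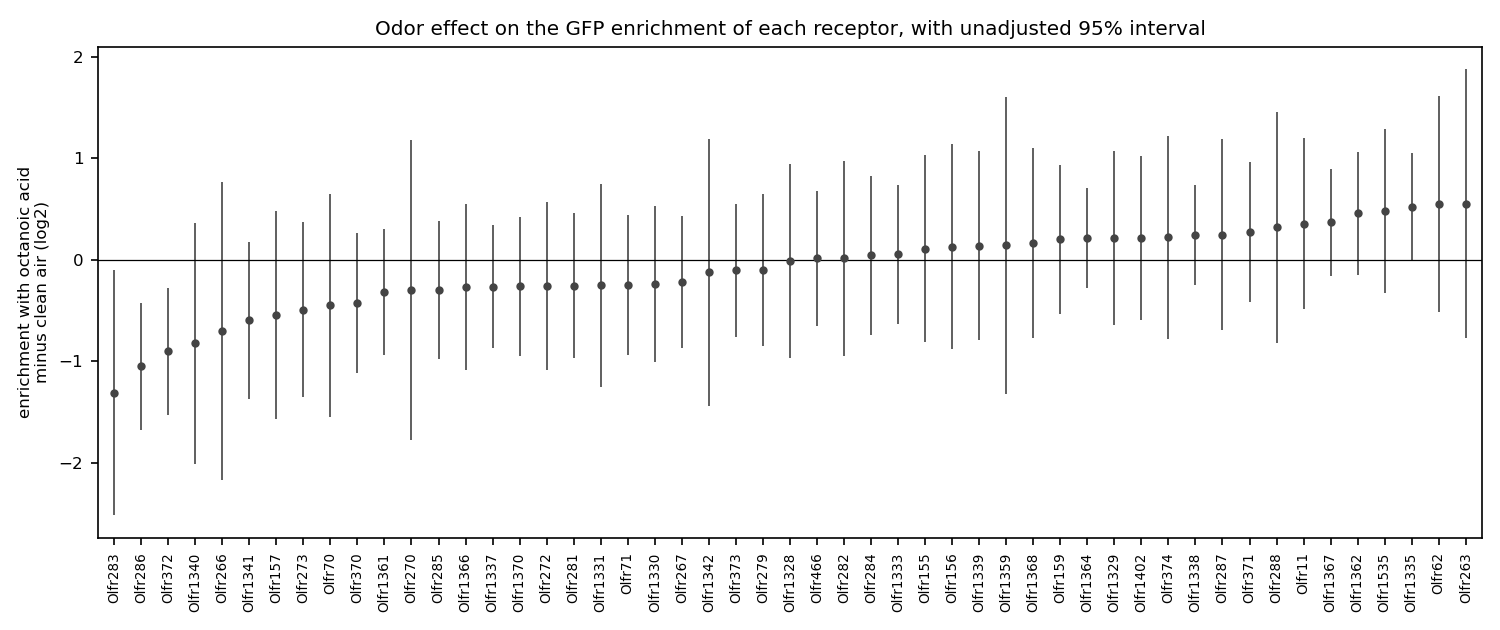
Effect of octanoic acid on the GFP+ minus GFP- difference of each of the 51 receptors (log2, octanoic acid minus clean air), ordered by size, with unadjusted 95% intervals. The intervals of Olfr283, Olfr286 and Olfr372 lie below 0, no interval lies wholly above it, and none of the 51 passes the correction over all genes.

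The genes that act with the receptors were measured on the same arrays. Of 24 signalling and receptor support genes, 1 was higher in GFP+ cells in both treatments, with a median difference of 0.21 with clean air and 0.15 with octanoic acid against 0.11 over all genes. That gene was Ano2, the calcium-activated chloride channel that amplifies the receptor current, at 0.50 ± 0.13 and 0.51 ± 0.07. Cbx5, a heterochromatin protein, was lower with octanoic acid (-0.68 ± 0.37, adjusted p = 0.0268) and had -0.55 ± 0.38 with clean air (adjusted p = 0.0761). Rtp1, which helps receptors reach the membrane, had 0.01 ± 0.22 with clean air, and Adcy3 had 0.45 ± 0.22 and 0.23 ± 0.11, uncalled. Of 8 activity-dependent neuronal genes 5 were called higher in both treatments and 0 lower, with medians of 1.12 and 1.03. Over all genes 5.83% and 6.26% were called higher. The 5 include S100a5, for which the gate itself selects, and also Lrrc3b (1.90 ± 0.27 and 1.83 ± 0.34) and Pcp4l1 (1.86 ± 0.32 and 1.48 ± 0.52). Of the uncalled genes, Slc17a6 had 0.39 and 0.23, Rasgrp4 had -0.23 and -0.98, and Kirrel3 had -0.30 and -0.26. None of either list was called in the 3 comparisons between treatments.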

How the data were processed

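Per the labels, RNA of sorted olfactory mucosa cells was hybridized to Clariom S arrays; the authors deposited log2 signals of each probe set, with Affymetrix Expression Console named in the submitters' processing notes. Its version, summary method and background step are not given in the sources used here. Where a gene had several probe sets, the brightest over all arrays was kept, giving 19505 genes; all 51 receptors had 1. The pairing of GFP+ with GFP- samples follows from 24 mice in pools of 3. Two-sided tests used limma 3.58.1 under R 4.3.3, fitted across all genes, in 1 fit of the 8 within-pool differences for the enrichment of each treatment and the effect of octanoic acid on it, and in 2 fits of 8 arrays for the effect within each sort. A fold at least N is the brighter group's mean over the dimmer group's with values under the negative-control median of 6.20 raised to it. Pools of octanoic acid and clean air that share a number hold different mice; their deviations correlated at 0.179, 0.110, 0.237 and 0.10004 in the within-pool differences, 0.371, 0.1004, 0.219 and 0.138 in GFP+ and 0.408, 0.10002, -0.0986 and 0.153 in GFP- arrays, several only just above 0.1 and 1 below it, and the fit with that number as a block was an alternative. Members, lists and the rule for naming genes (the highest and lowest differences of each treatment and chromosome, and the smallest p between treatments) were chosen with earlier results of these data known; a part of the rule that needed protein identity was not used here. The fits were run on simulated data with 200 changed genes and independent normal noise. They recovered 50.8% and 55.3% of 2-fold and 94.6% and 95.6% of 4-fold enrichment changes (clean air, octanoic acid). Of 2-fold and 4-fold effects of octanoic acid on enrichment they recovered 1.9% and 82.4%. Within GFP+ and GFP- cells they recovered 41% and 40.2% of 2-fold and 93.3% and 94.2% of 4-fold effects. The enrichment fits of the real data called 3006 and 3347 genes, far more than 200. The simulated enrichment rates thus need not hold for them. The changed genes were drawn from all genes, and the receptors were noisier. The median SE of the effect of octanoic acid on enrichment was 0.37 for the 51 receptors and 0.27 over all genes. Within GFP+ cells it was 0.29 and 0.21, and within GFP- cells 0.28 and 0.20. The real comparisons between treatments called 0 genes, where the simulation changed 200. The simulated rates for octanoic acid effects thus need not hold for the receptors. The number of arrays limits the precision.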

Additional observations from a re-analysis of the deposited data

Results flagged for a closer look

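In 104 groups of 4 pools tested, 4 had a pool far from the other 3, by Dixon's gap relative to the range; chance alone flags about 1 in 20 groups. The difference of Olfr1370 was -0.51 in clean air pool 2, where the others ran from 0.66 to 0.73. That of Olfr70 was -0.28 in clean air pool 1, against 1.21 to 1.32. Olfr155 had -1.32 in octanoic acid pool 2, against -3.16 to -3.07, and was called lower with and without that pool. Olfr273 had 0.028 in octanoic acid pool 4, against 1.86 to 2.00, and was called higher with and without that pool.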

How the results depend on the processing

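The counts of called receptors stayed within 1.5 times under every alternative run. Leaving out each pool in turn gave 29 to 32 calls with clean air (higher 20 to 23, lower 8 to 10, median 0.60 to 0.79) and 30 to 34 with octanoic acid (higher 21 to 24, lower 9 to 11, median 0.43 to 0.65); 27 of 31 and 29 of 34 calls were kept in all 8 such fits. Without the pool as a block (no replicate block) 34 and 30 were called; with clean air 1 call was lost and 4 were gained, and with octanoic acid 4 were lost. In the 3 comparisons between treatments 0 receptors were called under every setting, the replicate block on the shared pool number included, where the smallest adjusted p over all genes was 0.781, 0.826 and 0.915. Array median centring moved the median of all genes to 0.38 and 0.42 for clean air and octanoic acid, and that of the receptors to 0.98 and 0.76, with 32 higher and 8 lower and 27 higher and 10 lower. Quantile normalization gave 26 higher and 10 lower with clean air and 24 and 10 with octanoic acid, and centring on the other receptors 21 and 10 and 24 and 10, moving the median of all genes to -0.02 with clean air and 0.25 with octanoic acid. With octanoic acid the receptors' median was 0.77 with values floored at each array's negative-control median and 0.89 over the 44 above background. The clean air medians in these settings were 0.56 and 0.83. The floor reversed the sign of receptors under it by its construction, since it differs between arrays: Olfr159 became 0.034 and Olfr371 0.12 with clean air (not called), and Olfr1402 and Olfr371 both 0.46 with octanoic acid (adjusted p = 0.0326). An alternative chosen after seeing the data, without octanoic acid pool 3 and clean air pool 4, gave 31 (20 higher, 11 lower) and 32 (22 higher, 10 lower). Signals near the negative controls limit the 7 receptors under their median.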
